A study of Homo sapiens with 4 samples.

Results

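The genes of STAT, JAK and IRF signalling described here are 9 interferon and cytokine signal transducers and regulators, taken by symbol from the gene count table. They are the kinases JAK1 and TYK2, the transducers STAT2 and STAT3, the interferon regulatory factors IRF9, IRF7 and IRF1, and the feedback inhibitors SOCS1 and SOCS3. All 9 were found among the 58735 genes counted, and all 9 were among the 15817 genes with enough counts to be tested. RNA was sequenced from HCC1954 cells, an established human breast cancer cell line with an amplified ERBB2 gene, in 2 groups of 2 samples. The shCON cells carried a scrambled short hairpin RNA and the shZDHHC15 cells a hairpin against ZDHHC15, an enzyme that attaches palmitate to proteins. Both hairpins were expressed from lentiviral GIPZ plasmids. The labels describe plasmids delivered transiently with a lipid reagent and cells collected 36 h later. The study's methods also mention stable knockdown lines and the screening of monoclonal cultures, and its results describe transduced HCC1954 cells with stable knockdown. Which of these applies to the sequenced samples could not be settled. The labels do not say whether the 2 samples of a group came from separate cultures, nor whether both shZDHHC15 samples carried the same hairpin, so the p-values measure only the spread between these samples, which may be technical.

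Cytokine receptors of this pathway have no kinase of their own and rely on Janus kinases bound to their intracellular tails. JAK1 and TYK2 serve the type I interferon receptor, where they phosphorylate STAT proteins, and STAT2 with IRF9 is part of the complex ISGF3 on interferon-stimulated response elements (ISRE). STAT dimers bind gamma-activated sites (GAS), receptors that share gp130 act mainly through STAT3, and SOCS proteins are induced by STATs and shut the kinases off.

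The total counts were 17560982 to 18496026 in shCON and 18207192 to 19118704 in shZDHHC15. ZDHHC15 itself had 17617 and 15716 counts in the shCON samples and 0 in both shZDHHC15 samples, where a count of 0 allows up to 3 counts. A hairpin usually leaves part of its target RNA, so this is less than a knockdown commonly gives, and the reason was not tested. Of the tested genes, 3427 (21.7%) were higher and 3217 (20.3%) lower in shZDHHC15 at an adjusted p under 0.05 (edgeR quasi-likelihood test, Benjamini-Hochberg over all tested genes), so a call in either direction was common. Summed epithelial markers were 14373 and 14813 TPM (transcript counts divided by gene length and scaled to a fixed total) in shCON and 8825 and 9307 in shZDHHC15, with 7 of 9 markers lower and 1 higher. In bulk RNA, fewer cells of a type and less RNA per cell cannot be told apart. Leukocyte markers summed to 6.86 to 8.97 TPM in every sample, and CD3E, MS4A1 and FCGR3A had 0 counts throughout. Of the 3 tested leukocyte markers 1 was higher (CD14, log2 fold change 1.61) and 2 were lower (CD8A the most, -1.29). Fibroblast markers summed to 2.15 and 2.52 TPM in shCON and 4.28 and 3.25 TPM in shZDHHC15, with LUM at 0 counts. The 1 tested fibroblast marker, COL1A1, was higher (log2 fold change 0.65). Endothelial markers summed to 31.7 and 30.1 TPM in shCON against 59.4 and 57.6 TPM in shZDHHC15. Of the 3 tested genes of that last list, PECAM1 (75 and 56 to 666 and 405 counts) and CDH5 (807 and 780 to 1224 and 1487) were higher and KDR (159 and 121 to 108 and 87) was lower, while VWF had 0 to 7 counts. The part of these shifts in the results that follow was not tested.

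Promoter windows of RefSeq on GRCh38.p14, from 250 bases before to 50 after each annotated start, were found for 8 of the 9 genes, and IRF7 was not among them. Both strands were searched for the ISRE core GAAANNGAA and the GAS motif TTCNNNGAA, and no stretch can match both patterns at the same position. The 3 windows with a match are shown because they hold the letters that STAT-containing complexes are known to read, with the matched letters in capitals. The IRF1 window lies at chr5:132490724-132491023 (minus strand), that of IRF9 at chr14:24161015-24161314 (plus strand) and that of SOCS1 at chr16:11256155-11256454 (minus strand).
IRF1: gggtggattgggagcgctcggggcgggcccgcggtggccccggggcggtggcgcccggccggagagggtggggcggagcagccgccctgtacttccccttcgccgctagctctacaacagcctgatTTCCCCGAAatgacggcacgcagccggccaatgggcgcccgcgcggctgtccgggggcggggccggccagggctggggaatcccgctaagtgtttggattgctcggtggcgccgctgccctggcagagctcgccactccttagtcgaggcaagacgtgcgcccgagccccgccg
IRF9: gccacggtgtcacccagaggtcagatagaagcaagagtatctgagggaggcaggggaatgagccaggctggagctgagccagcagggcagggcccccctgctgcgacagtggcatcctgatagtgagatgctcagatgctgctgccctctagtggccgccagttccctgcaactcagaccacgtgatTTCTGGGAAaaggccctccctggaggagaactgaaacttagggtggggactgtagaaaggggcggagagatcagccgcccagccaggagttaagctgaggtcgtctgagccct
SOCS1: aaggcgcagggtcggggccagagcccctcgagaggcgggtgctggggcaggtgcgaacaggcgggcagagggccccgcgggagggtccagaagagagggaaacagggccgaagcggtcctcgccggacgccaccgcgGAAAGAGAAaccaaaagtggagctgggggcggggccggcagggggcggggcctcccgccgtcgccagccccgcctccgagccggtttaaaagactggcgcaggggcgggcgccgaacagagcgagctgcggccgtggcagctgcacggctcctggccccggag
The GAS match of IRF1 began 124 bases before the start, that of IRF9 began 63 bases before it, and the ISRE core match of SOCS1 began 113 bases before it. An ISRE core was thus present in 1 of the 8 genes (1 of their 11 windows), and in 8.11% of all 35116 promoter windows. A GAS motif was present in 2 of the 8 genes (2 of 11 windows) and in 7.66% of all windows. Among the ISGF3 target genes listed further on, 21 of the 25 with a window held an ISRE core (26 of 34 windows). Of the 11 GAS and IRF1 target genes with a window, 8 held an ISRE core (8 of 13 windows) and 5 a GAS motif (5 of 13 windows). Of the 14 STAT3 target genes with a window, 1 held a GAS motif (1 of 19 windows). A match describes letters in the window and is not a measured binding site.

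Of the 9 genes, 7 were higher in shZDHHC15, 0 were lower and 2, TYK2 and SOCS1, did not pass the test. Over all tested genes the shares were 21.7% higher and 20.3% lower. The 3 largest differences were those of STAT2, IRF9 and IRF7, each between 3.42-fold and 3.73-fold. The median log2 fold change of all 9 was 0.73, and that of all tested genes was 0.02. Both shZDHHC15 samples lay above both shCON samples for all 9 genes, a pattern that 37.2% of all tested genes shared. After adjustment DESeq2 called 6 of the 9 higher and 0 lower, beside 2645 higher and 2704 lower of all 15817 genes. At an unadjusted p under 0.05, 7 were higher and 0 lower by edgeR as well as by DESeq2. The share of all genes at that threshold was not counted, so the unadjusted counts cannot be weighed.

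**Figure D1:**
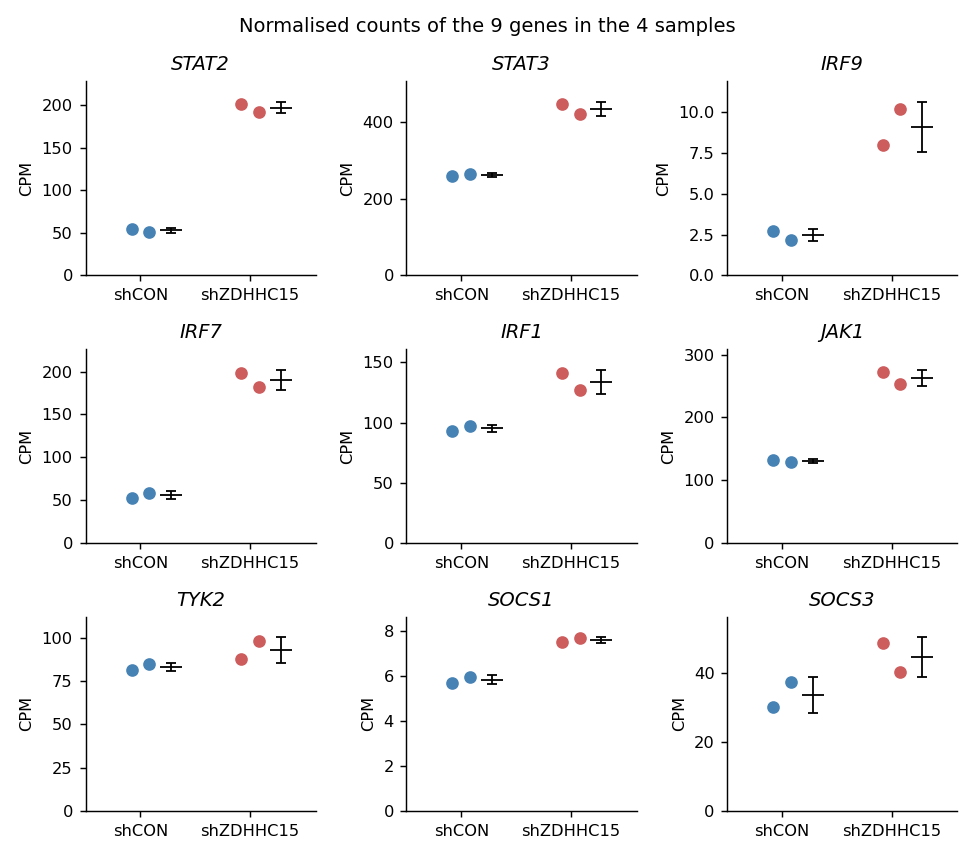
Normalised counts (CPM, scaled by TMM factors) of the 9 genes, with 1 panel per gene, a linear axis from 0, points for the 2 shCON samples (blue) and the 2 shZDHHC15 samples (red), and bars for the mean ± SD. The groups are far apart for STAT2 (52.8 against 197 CPM) and close for TYK2 (83.1 against 92.8 CPM).

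JAK1, the kinase that most receptors of the interferon and gp130 families share (ENSG00000162434, chr1:64833229-64966504), had 2423 and 2177 counts in shCON and 5067 and 4974 in shZDHHC15. Scaled to depth, this was 131 ± 2.72 CPM against 263 ± 13.2 CPM (SD, n = 2 each), a log2 fold change of 1.00 ± 0.09 (SE, edgeR adjusted p = 8.39e-07). The lowest shZDHHC15 sample, at 253 CPM, was well above the highest shCON sample, at 133 CPM. TYK2, its partner at the type I interferon receptor (ENSG00000105397, chr19:10350529-10380676), had 1482 and 1433 counts in shCON and 1630 and 1924 in shZDHHC15. Its levels were 83.1 ± 2.59 and 92.8 ± 7.41 CPM, and the log2 fold change of 0.16 had a 95% interval from -0.06 to 0.37 (edgeR adjusted p = 0.225). The samples of the 2 groups did not overlap for TYK2, but the gap between 85.0 and 87.5 CPM was smaller than the spread within shZDHHC15. Per length, JAK1 was 1.69 times TYK2 in shCON and 3.05 times TYK2 in shZDHHC15.

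STAT2, the transducer that is dedicated to type I and type III interferon signals (ENSG00000170581, chr12:56341597-56360155), had 1001 and 855 counts in shCON and 3755 and 3774 in shZDHHC15. The means were 52.8 ± 2.98 and 197 ± 6.65 CPM, a 3.73-fold difference (log2 1.90 ± 0.10, SE, edgeR adjusted p = 1.65e-09). This was the largest rise of the 9, at percentile 97.4 of the log2 fold changes of all tested genes. STAT3, the main transducer of the gp130 receptors (ENSG00000168610, chr17:42313324-42388568), had 4712 and 4477 counts in shCON and 8326 and 8273 in shZDHHC15. It rose 1.66-fold, from 262 ± 4.92 to 434 ± 18.2 CPM (log2 0.73 ± 0.09, SE, edgeR adjusted p = 1.29e-05). The 95% intervals of the log2 fold changes, 1.69 to 2.11 for STAT2 and 0.54 to 0.92 for STAT3, did not meet. STAT3 was 3.26 and 3.63 times STAT2 per length in the shCON samples and 1.54 and 1.52 times in the shZDHHC15 samples.

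IRF9, the DNA-binding subunit of ISGF3 (ENSG00000213928, chr14:24161053-24166565), had 50 and 37 counts in shCON, the fewest of the 9, and 149 and 200 in shZDHHC15. In each shZDHHC15 sample SOCS1 had fewer, with 140 and 151 counts. IRF9 rose 3.67-fold, from 2.47 ± 0.388 to 9.10 ± 1.55 CPM (log2 1.88 ± 0.24, SE, edgeR adjusted p = 1.94e-05). The low counts gave it the widest interval of the 9, from 1.37 to 2.38. IRF9 shares 1838 of its 3794 exonic bases with the gene AL136295.5 on the same strand, which had 27 and 14 counts in shCON and 77 in each shZDHHC15 sample, so how reads were divided between the pair is uncertain. STAT2 was 12.4 and 14.4 times IRF9 per length in shCON and 15.7 and 11.7 times in shZDHHC15, and these ratios overlapped between the groups.

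IRF7, which drives the transcription of interferon alpha genes (ENSG00000185507, chr11:612553-615999), had 954 and 994 counts in shCON and 3701 and 3572 in shZDHHC15. The rise was 3.42-fold, from 55.6 ± 4.67 to 190 ± 11.9 CPM (log2 1.78 ± 0.10, SE, edgeR adjusted p = 5.92e-09). IRF1, an activator of antigen presentation and guanylate-binding protein genes (ENSG00000125347, chr5:132481609-132490798), had 1694 and 1642 counts in shCON and 2626 and 2493 in shZDHHC15. It rose 1.41-fold, from 95.1 ± 3.13 to 134 ± 9.92 CPM (log2 0.49 ± 0.10, SE, edgeR adjusted p = 9.69e-04). Both factors were higher in each shZDHHC15 sample, and the interval of IRF7 (1.55 to 2.00) lay above that of IRF1 (0.29 to 0.70). IRF7 was 1.67 and 1.80 times IRF1 per length in shCON and 4.18 and 4.25 times in shZDHHC15. On the opposite strand, C5orf56 covers 1716 exonic bases of IRF1. Whether counting used the strand is not given in the sources used here, and C5orf56 had at most 82 counts in any sample.

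SOCS1, which blocks JAK1, JAK2 and TYK2 directly (ENSG00000185338, chr16:11254405-11256200), had 104 and 101 counts in shCON and 140 and 151 in shZDHHC15. Its means of 5.85 ± 0.200 and 7.61 ± 0.123 CPM were separated by more than the spread of the samples, but the log2 fold change of 0.38 had an interval from -0.02 to 0.78 at these counts (edgeR adjusted p = 0.119). SOCS3, the inhibitor of gp130 signalling (ENSG00000184557, chr17:78356778-78360077), had 547 and 629 counts in shCON and 904 and 792 in shZDHHC15. It rose 1.32-fold, from 33.6 ± 5.15 to 44.5 ± 5.80 CPM (log2 0.40 ± 0.13, SE, edgeR adjusted p = 0.0243). The nearest samples of the 2 groups, at 37.3 and 40.3 CPM, lay closer together than the samples within either group. This call was lost under 4 of 12 alternatives, among them leaving out shCON replicate 1 (log2 0.22) and shZDHHC15 replicate 1 (log2 0.26). The log2 fold change of SOCS3 ran from 0.22 to 0.55 over the 12. Per length, SOCS1 was 0.157 times JAK1 in shCON and 0.102 times in shZDHHC15, and SOCS3 was 0.413 and 0.329 times STAT3.

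Levels of different genes were compared as TPM, which divides counts by gene length. In shCON the order was STAT3 (100 ± 2.01 TPM), IRF7 (71.4 ± 3.23), JAK1 (70.1 ± 4.17), SOCS3 (41.5 ± 4.76), TYK2 (41.5 ± 0.316), IRF1 (41.2 ± 0.243), STAT2 (29.2 ± 2.78), SOCS1 (11.0 ± 0.050) and IRF9 (2.21 ± 0.431). The samples of IRF7 and JAK1, of SOCS3 and TYK2, and of TYK2 and IRF1 overlapped, so these neighbours could not be ranked. In shZDHHC15 IRF7 came first at 264 ± 16.7 TPM, followed by STAT3 (179 ± 7.68), JAK1 (151 ± 7.78), STAT2 (117 ± 4.07), IRF1 (62.6 ± 4.69), SOCS3 (59.2 ± 7.78), TYK2 (49.9 ± 3.94), SOCS1 (15.4 ± 0.235) and IRF9 (8.73 ± 1.48). Here only IRF1 and SOCS3 overlapped as neighbours. The level of IRF9 was divided by its full length, part of which is shared with AL136295.5, so its place below SOCS1 in shZDHHC15 is uncertain. STAT2 ranked below IRF1 in shCON and above it in shZDHHC15, and the 9 genes together went from 410 and 407 to 938 and 877 TPM. With 2 samples per group the smallest two-sided p of an exact permutation test is 0.333, and each ratio between genes given here had that p except STAT2 to IRF9, where p was 1.

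**Figure D2:**
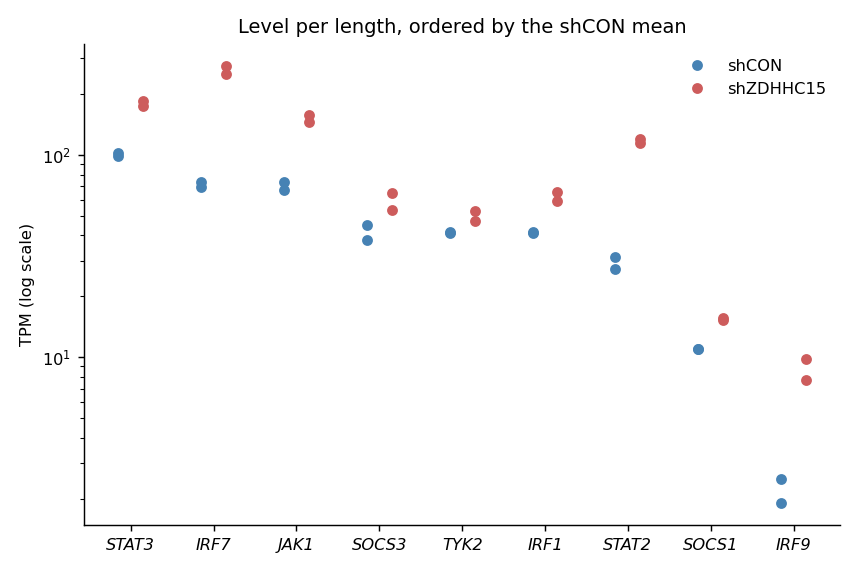
Level per length of the 9 genes in TPM on a log axis, ordered by the shCON mean, with a point for each shCON sample (blue) and each shZDHHC15 sample (red). IRF7 passes STAT3 in shZDHHC15 (264 against 179 TPM). IRF9, whose exons are shared in part with AL136295.5, is plotted lowest in both groups.

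Other genes of the STAT and JAK families were read from the same fit. STAT4 (log2 1.99), STAT5A (1.07) and STAT6 (0.52) rose, and STAT5B (0.16, adjusted p = 0.230) did not pass. Among the other Janus kinases JAK2, which serves the interferon gamma receptor, rose from 704 and 580 to 1985 and 1532 counts (log2 1.34, adjusted p = 2.82e-06), while JAK3 had at most 59 counts and a log2 fold change of 0.06 (adjusted p = 0.896).

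In the IRF family, IRF8 (log2 1.79, from 24 and 26 to 99 and 90 counts) and IRF2 (1.05) rose, and IRF5 (-0.05, adjusted p = 0.853) did not pass. IRF3, the factor activated by nucleic acid sensors, had a log2 fold change of -0.22 (adjusted p = 0.0945) and shares 734 of its 3794 exonic bases with BCL2L12 on the opposite strand. In the SOCS family, 2 of 6 other genes were higher and 1 lower, beside 21.7% higher and 20.3% lower of all tested genes. SOCS5 (log2 0.70) and SOCS7 (0.40, not called under 3 of 12 alternatives) rose, and SOCS2, an inhibitor of growth hormone signalling, fell from 116 and 103 to 40 and 46 counts (log2 -1.47, adjusted p = 1.78e-04). Of 10 other negative regulators 4 were higher and 0 lower, with a median of 0.20. USP18, which occupies IFNAR2 and keeps JAK1 away from it, rose from 151 and 130 to 1806 and 1570 counts (log2 3.47), and SH2B3 (0.74), PIAS2 (0.47, not called under 3 of 12 alternatives) and PTPN1 (0.41) had smaller rises.

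**Figure D3:**
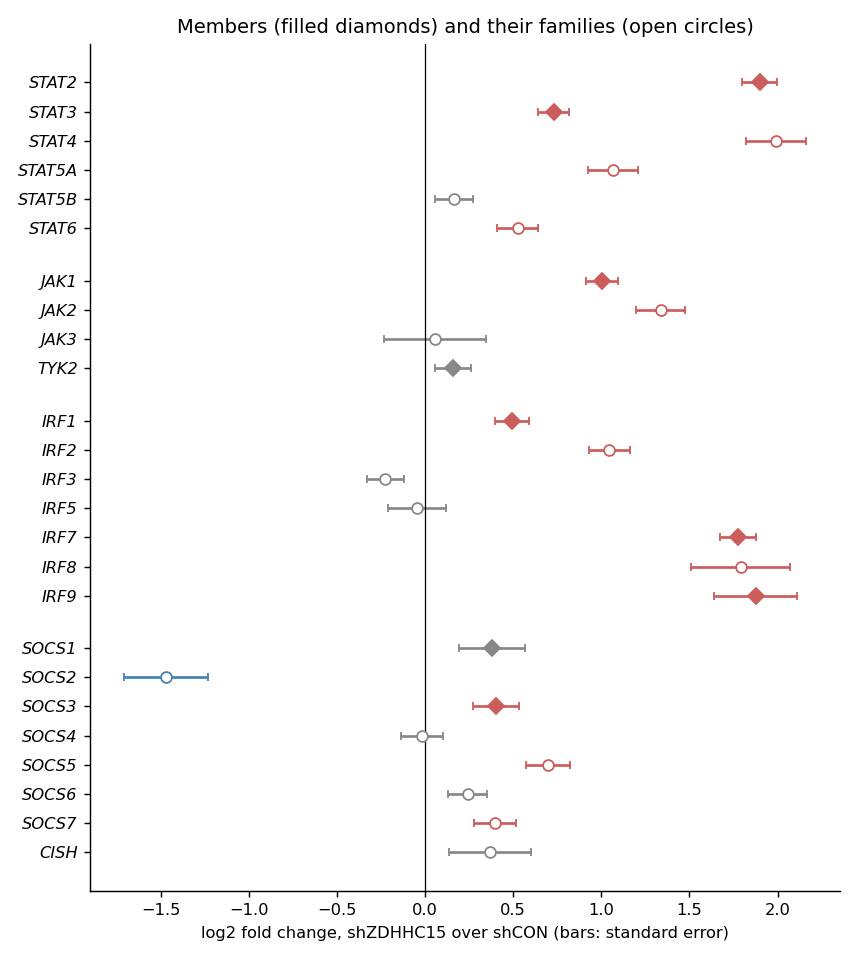
Log2 fold change (shZDHHC15 over shCON) of the 9 genes (filled diamonds) and of other genes of their families (open circles), with bars for the standard error. Red marks an adjusted p under 0.05 and higher, blue the same and lower, and grey no call, so that STAT2, STAT4, IRF7, IRF8 and IRF9 lie to the right and SOCS2 (-1.47) alone lies far to the left.

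Upstream of the Janus kinases, 4 of 5 tested interferon receptor genes were higher and 0 lower, with a median log2 fold change of 0.93. The shares over all tested genes were 21.7% higher and 20.3% lower. IFNLR1 (1.27), IFNGR2 (1.18), IFNGR1 (0.93) and IFNAR1 (0.32) rose, although IFNAR1 was lost under 3 of 12 alternatives. IFNAR2, the chain bound by JAK1, had 38 and 29 counts in shCON and 46 and 74 in shZDHHC15 (log2 0.71, adjusted p = 0.0776), and its log2 fold change ran from 0.37 to 0.98 over 12 alternatives. It shares 2038 of its 4614 exonic bases with AP000295.1 on the same strand (at most 2 counts in any sample) and 1803 with IL10RB-DT on the opposite strand (4 and 4 counts in shCON, 29 and 18 in shZDHHC15), so its counts are uncertain. Of 10 interferon genes only 2 had enough counts to be tested, and IFNL1 was called higher on 5 and 2 against 12 and 15 counts, a call lost under 6 of 11 alternatives. IFNB1 had 1 and 0 counts in shCON and 4 and 3 in shZDHHC15, and 5 interferon genes had 0 counts in every sample.

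Around STAT3, the gp130 family receptors LIFR (log2 1.40) and OSMR (0.90) rose, and IL6ST, which encodes gp130 itself, had a log2 fold change of 0.33 (adjusted p = 0.0679). The log2 fold change of IL6ST ran from 0.07 to 0.61 over 12 alternatives, of which 3 called it. LIFR and OSMR were 2 of 7 tested receptors, with 0 lower, beside 21.7% higher and 20.3% lower of all tested genes. The count became 4 higher with scaling by library size only, where 3926 of all tested genes were higher. With upper-quartile factors 1 receptor was lower. Of the tested ligands of the same receptors, 3 of 5 were lower and 0 higher. IL11 (log2 -1.36), CLCF1 (-1.10) and LIF (-0.60, from 11472 and 11299 to 6826 and 9628 counts) fell.

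The gene lists downstream of the transducers differed in their counts, which stand beside 21.7% higher and 20.3% lower of all tested genes. Of 30 ISGF3 target genes 29 were higher and 0 lower, with a median log2 fold change of 3.09, from 0.77 for MX1 (adjusted p = 0.0564, not called) to 5.75 for XAF1. Of 18 GAS and IRF1 target genes 16 were higher and 0 lower, with a median of 2.15. CXCL10, a chemokine that attracts T cells, was the highest at 6.65, with 69 and 57 counts in shCON and 8305 and 5378 in shZDHHC15, and CD274 did not pass (0.14, adjusted p = 0.280). Of 19 tested STAT3 target genes 9 were higher and 7 lower, with a median of 0.13. Within that list SERPINA3, an acute-phase protease inhibitor, rose most (2.04) and CCND1, which encodes cyclin D1, fell most (-1.30, from 58294 and 53115 to 22052 and 27309 counts). The interferon target lists were written with earlier results of these samples known and are not independent evidence of a direction. Between the lists no difference was tested.

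**Figure D4:**
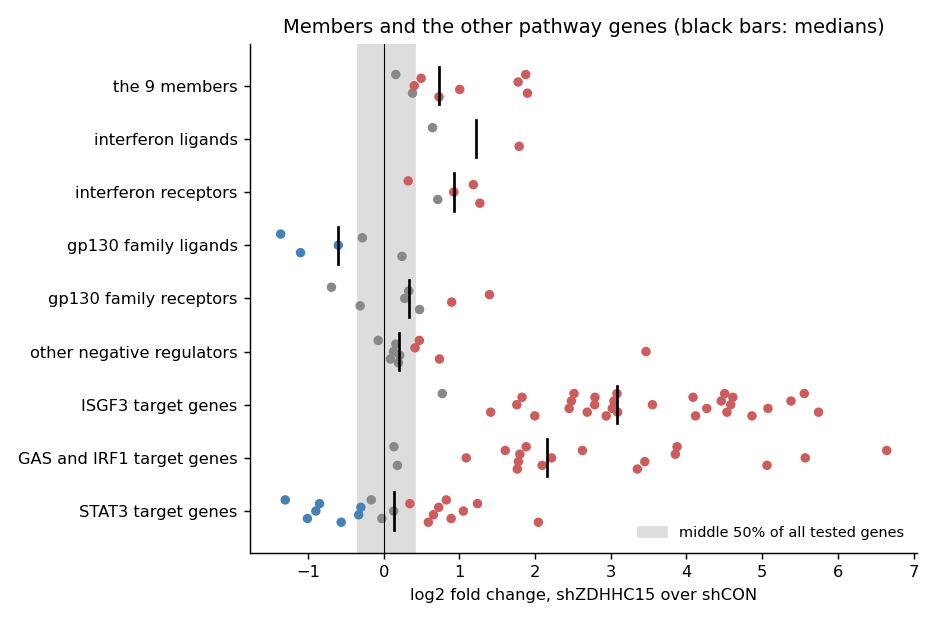
Log2 fold change (shZDHHC15 over shCON) of each tested gene in the pathway lists, with the list median as a black bar, called genes in red (higher) or blue (lower), uncalled genes in grey, and the middle 50% of all tested genes shaded (-0.33 to 0.41). The ISGF3 target genes (median 3.09) lie to the right of the 9 signalling genes (median 0.73), and the STAT3 target genes spread to both sides.

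The protein-coding genes whose profile over the 4 samples was nearest to that of STAT2 were SRCIN1, CYP4F3 and SDCBP2, with root mean square differences of 0.039, 0.0552 and 0.0644 in log2 CPM after subtraction of the shCON mean. For IRF9 they were IL36G (0.0662), SCUBE3 (0.0778) and PLAT (0.101). With 4 samples in 2 groups such likeness rests mostly on the size of 1 difference.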

How the data were processed

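The authors deposited 1 table of raw read counts per gene for the 4 samples, not normalized, with gene lengths. The submitters' processing notes name HISAT2, SAMtools, StringTie and hg38, without versions or roles, and whether counting used the strand is not given in the sources used here. All 58735 identifiers matched GENCODE release 29 (GRCh38) in start, end and symbol. All 4 count columns were used, and 0 were left out.

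Genes passing filterByExpr (15817) were tested with edgeR 4.0.16 in R 4.3.3 (TMM, glmQLFit with legacy = FALSE, glmQLFTest, limma 3.58.1), with Benjamini-Hochberg adjustment and a threshold of 0.05. Standard errors were derived from the F statistic. CPM were scaled by TMM, TPM used the deposited gene lengths, and DESeq2 1.42.0 served as an alternative. Overlapping exons were read from GENCODE and near-identical stretches (150 bases, 97% identity) found with blastn 2.17.0. Ratios were tested by exact permutation on the log2 scale (scipy 1.17.1).

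Counts of the 2 samples of a group differed by more than sampling noise (chi-square per degree of freedom 8.32 in shCON, 6.79 in shZDHHC15). A floor of 3 counts was 0.153 to 0.178 CPM and covers counting error only.

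The 9 genes and all lists were chosen with earlier results of these data known. Genes named beyond the 9 are ZDHHC15, members of the same families, receptors and negative regulators, the largest rise and fall of each list, and, for STAT2 and IRF9, the 3 nearest in pattern. MX1, CD274, IL6ST, OSMR, LIF, CLCF1, IFNB1 and the markers named singly were added after their values were seen. A few results under this rule are not reported here. Alternatives were 3 other scalings, the DESeq2 Wald test, 2 other filters, the legacy quasi-dispersion, the replicate block and leaving out each sample.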

Additional observations from a re-analysis of the deposited data

How the results depend on the processing

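Over 12 alternatives, STAT2, STAT3, IRF9, IRF7, IRF1 and JAK1 were called higher throughout, and TYK2 and SOCS1 were not called under any. Their log2 fold changes ranged from 1.83 to 1.97 for STAT2, 0.68 to 0.80 for STAT3, 1.68 to 2.04 for IRF9, 1.66 to 1.85 for IRF7, 0.42 to 0.57 for IRF1, 0.95 to 1.08 for JAK1, 0.07 to 0.24 for TYK2 and 0.31 to 0.46 for SOCS1. SOCS3 lost its call under the DESeq2 Wald test (0.39), without the filter on low counts (0.39), without shCON replicate 1 (0.22) and without shZDHHC15 replicate 1 (0.26). Without the filter on low counts 2282 genes were higher over all genes, where 30168 genes were tested. Leaving out each sample in turn gave 2525 to 3405 genes higher and 2203 to 3478 lower, with 6 to 7 of the 9 genes higher and 0 lower; the lone sample of a group was then assumed to vary like the other group. Scaling by library size only gave 3926 genes higher and 2546 lower and moved the median of all genes to 0.09. The replicate numbers showed little sign of pairing the samples (correlation of deviations 0.0344 across 15817 genes), but 2 pairs cannot settle this. A replicate block gave 3723 genes higher, 3502 lower, 7 of the 9 genes higher, and 4 gp130 family receptors higher and 1 lower. With 2 samples a group, the 95% intervals of TYK2 (-0.06 to 0.37) and SOCS1 (-0.02 to 0.78) leave their direction unsettled.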
